A study of Mus musculus with 6 samples.

Results

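Short retained introns were taken as the intron positions that appear in the event tables both as retained and as spliced and whose event spans at most 500 bases. A retained and a spliced event were paired when they shared the locus, the chromosome, the start and the end, with repeated rows dropped. Of 5218 introns paired in this way, 3060 (58.6%) were short, in 1722 host loci, and the other 2158 spanned more than 500 bases and are called long introns here. A further 720 short retained events had no spliced partner and 1061 short spliced events had no retained partner, so they were not used. The choice rested on length and on being listed in both forms, and set no cut-off on the level of retention. It was still not free of retention. The 1061 unpaired spliced events have no retained form in any tumour, and the 720 unpaired retained events no spliced form. Introns at either extreme of retention in every tumour were thus left out. The levels, bands and class comparisons below hold only for introns listed in both forms, short or long.

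A375, a human melanoma line with the genotype label WT, was implanted under the skin of BALB/c nude mice, and RNA was taken from the tumours. The ZLD1039 group received ZLD1039, an inhibitor of the histone methyltransferase EZH2, at 100 mg/kg (10 mg/mL) by oral gavage once daily, and the vehicle group received vehicle alone. Each group held 5 mice, and 3 tumours of each were sequenced on day 27, numbered 1 to 3 within the group. Both groups are models made from 1 cell line in hosts without a normal T cell compartment, and whether the 3 tumours came from 3 separate mice is not stated, so each p reflects the spread among these samples, which may be technical. The labelled cell type could not be checked against marker genes, because no human gene names were used here.

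Introns are cut out of a transcript by the spliceosome, which recognises the 5′ splice site, the branch point and the 3′ splice site. An intron that stays in a polyadenylated transcript is called retained. In vertebrates retention is a common form of alternative splicing and is known to favour short introns, those rich in G and C, and those with weak splice sites. Transcripts with a retained intron are often held in the nucleus or degraded when the intron brings in an early stop codon. An intron whose length is a multiple of 3 and that holds no stop codon leaves the reading frame intact, and such introns can act as optional parts of a coding exon.

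Each tumour's table lists events with an abundance in FPKM, a fragment number scaled to transcript length and to the size of the library. ZLD1039 tumours 1, 2 and 3 listed 125058, 118402 and 126622 distinct events, against 127722, 123707 and 124314 in vehicle tumours 1, 2 and 3. Depth cannot be read from these values. Retained forms of short introns were listed 2208, 2058 and 2185 times in the ZLD1039 tumours and 2289, 2208 and 2193 times in the vehicle tumours, with ZLD1039 tumour 2 lowest in both counts. In the spliced form the event runs from the last base of the upstream exon to the first base of the downstream exon, so the intron itself is 2 bases shorter than the event length used here. Retention of an intron in a tumour was the summed FPKM of its retained forms over the sum of retained and spliced forms, in percent, with an unlisted form taken as 0. In 98.6% of 3230 spliced forms of the short introns a retaining exon of the same outer ends was listed, so retention compares forms of nearly the same exon and not all transcripts of the locus.

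The short events ranged from 22 to 500 bases with quartiles at 104 and 313 bases, and the long ones had a median of 1070 bases. Levels are given for the 2285 short introns (74.7%) in 1425 hosts that had a retained plus spliced total above 0 in every tumour and a mean total of at least 1 FPKM. Of the others, 511 had no total in at least 1 tumour and 264 had a mean total under 1 FPKM. The same filter kept 1472 long introns (68.2%). Of the short introns used, 342 shared their retaining exon with another, in sets of up to 7, so that their retained values are not independent. Just inside the length limit, 39 introns of over 480 to 500 bases averaged 16.8% retention, and just outside it 43 introns of over 500 to 520 bases averaged 20.9%.

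Most short introns were retained at up to 20%, and a smaller group was retained at over 80%. Averaged over the 6 tumours, 18.3% of short introns were retained at up to 1%, 27.3% at over 1% to 5%, and 24.8% at over 5% to 20%. The bands between 20% and 80% held fewer, with 10.0% at over 20% to 40%, 3.85% at over 40% to 60% and 3.46% at over 60% to 80%. The upper end then held 281 short introns, or 12.3%, at over 80%, against 71 or 4.82% of the long introns. The upper band was therefore larger than either of the 2 bands below it. Its introns had a median event length of 134 bases, against 224 bases for those at over 1% to 5%. Of all 3060 short introns, 793 overlapped another short intron of the same locus. Retention of such an intron leaves out the spliced form of the other. A value over 80% there need not mean that the whole stretch mostly stayed in the RNA. How many of the 281 introns were of this kind was not counted.

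**Figure D1:**
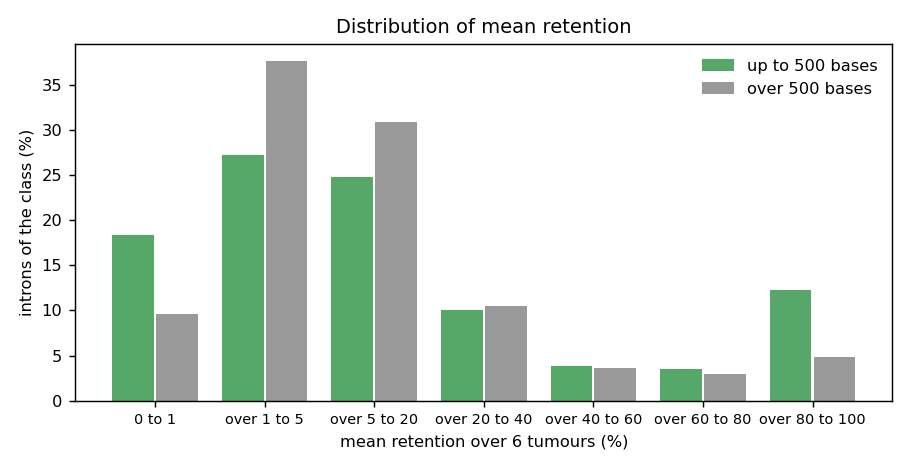
Share of introns (vertical axis, percent of the class) in each band of mean retention over the 6 tumours (horizontal axis, percent), for 2285 short introns and 1472 long introns. The band over 80% holds 12.3% of the short and 4.82% of the long introns.

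A few short introns carried much of the retained RNA. The most abundant retained form lay at chromosome 12, 6645956 to 6646086 on the plus strand (131 bases, host ENSG00000111640), and took 17.2% of the retained FPKM summed over the short introns used, with introns of the same retained values counted once. The 10 most abundant retained forms took 33.1% on the same count. The chromosome 12 form reached 407.5, 1776 and 269.9 FPKM in ZLD1039 tumours 1, 2 and 3, against 334.0, 1482 and 1635 FPKM in vehicle tumours 1, 2 and 3. Retention was 15.8%, 53.3% and 16.0% in the ZLD1039 tumours, against 15.3%, 51.1% and 55.9% in the vehicle tumours. The tumours thus fell at 2 levels, near 16% and near 53%, and both levels occurred in both groups. An overlapping intron of 104 bases ending at the same base, from 6645983 to 6646086, shared this retaining exon, and its own spliced form never exceeded 0.000329 FPKM, so its retention of 100% in every tumour restates the same retained form. On chromosome 7 the intron from 5568350 to 5568792 on the minus strand (443 bases, host ENSG00000075624) was retained at 33.3%, 66.4% and 50.7% in the ZLD1039 tumours and at 54.2%, 35.2% and 63.8% in the vehicle tumours, so the groups overlapped.

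Introns of the upper band were mostly retained in every tumour. The intron at chromosome 3, 150285716 to 150285804 (89 bases, plus strand) had retained forms of 61.0, 64.4 and 55.6 FPKM in the ZLD1039 tumours and 63.5, 51.9 and 65.7 FPKM in the vehicle tumours, with at least 97.5% retention in each of them. The intron at chromosome 16, 28403316 to 28403418 (minus strand) was retained at 100%, 100% and 28.7% in the ZLD1039 tumours and at 100% in all 3 vehicle tumours. In ZLD1039 tumour 3 that intron had 64.9 FPKM of a spliced form that the other tumours did not list. A 62-base intron at chromosome 19, 36632013 to 36632074 (plus strand) showed the same pattern in vehicle tumour 3, with 40.3% there and 100% in the other 5 tumours. Single tumours with a spliced form that the others lack therefore occurred in both groups.

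Introns of the middle bands varied most. The median standard deviation of retention over the 6 tumours was 30.9 percentage points for short introns at over 40% to 60%, against 5.998 points at over 80% and 0.17 points at up to 1%. The bands were cut on the mean of the same tumours, and a mean near either end of the scale limits the spread. This order is therefore largely set by the bands. The intron at chromosome 9, 35062135 to 35062214 (80 bases, minus strand) gave 18.1%, 73.9% and 64.6% in the ZLD1039 tumours and 61.2%, 16.5% and 63.1% in the vehicle tumours. That at chromosome 17, 7126184 to 7126452 (269 bases, plus strand) gave 89.5%, 19.5% and 43.6% in the ZLD1039 tumours and 0.236%, 30.6% and 82.0% in the vehicle tumours. In both introns each group held high and low tumours. Within a group the median standard deviation over all short introns was 3.26 points in the ZLD1039 tumours and 3.52 points in the vehicle tumours. Across introns, Pearson's r of retention between pairs of tumours was 0.784 to 0.817, a description over introns that share libraries and hosts.

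Some introns of abundant loci lay at the lower end. Those given here were picked for high totals among introns retained at up to 5%. In hosts at 100 FPKM or more, 66.4% of short introns were retained at up to 5% and 14.2% at over 50%. At chromosome 6, 74228951 to 74229060 (110 bases, minus strand) the spliced form reached 3463, 4271 and 3235 FPKM in the ZLD1039 tumours and 2272, 3405 and 3503 FPKM in the vehicle tumours, and at most 0.188% was retained. At chromosome 19, 50000582 to 50000777 (196 bases, plus strand) retention was low and even, at 1.43%, 1.60% and 1.32% in the ZLD1039 tumours and 1.47%, 1.39% and 1.06% in the vehicle tumours. The spliced form of this intron lay between 1034 and 1578 FPKM.

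Mean retention was higher in the introns of up to 200 bases than in the rest of the short class. Mean retention over the 6 tumours was 24.6% for the 559 introns of 1 to 100 bases and 25.1% for the 616 of over 100 to 200 bases. It was 19.4%, 19.6% and 19.2% for the 500, 369 and 241 introns of over 200 to 300, over 300 to 400 and over 400 to 500 bases. In these bins the means stepped down near 200 bases, and the 3 longer bins were level. The bin of 1 to 100 bases held 39 introns under 70 bases with far higher means, given below. Fine bins from 70 to under 100 bases averaged 16.6% to 24.1%, below the 24.6% of the whole bin. The medians over introns showed no such step, at 5.97%, 8.05%, 6.07%, 5.75% and 6.36% in the same order of bins. Within each tumour, introns of 1 to 200 bases were retained 4.78 to 6.05 percentage points more than those of over 200 to 500 bases, with a mean of 5.41 points (higher in 6 of 6 tumours, exact two-sided sign-flip test over tumours, p = 0.03125, the smallest that 6 tumours can give; 0.0357 after Benjamini-Hochberg adjustment over the 8 contrasts of this kind). The tumours share the same introns, so this p speaks of how steady the difference was from tumour to tumour and not of how it would vary over other introns. The split at 200 bases was chosen after the bins had been seen. Spearman's rho between length and retention across introns was −0.187 to −0.107 by tumour, a weak relation over introns that share hosts and libraries.

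The means were uneven below 100 bases. The 24 introns under 60 bases averaged 87.1% retention with a median of 95.2%, and the 15 of 60 to under 70 bases averaged 66.4% with a median of 88.0%. At 70 to under 80 bases the mean was 22.1% and at 80 to under 90 bases 16.6%, the lowest of all fine bins. It was higher again at 90 to under 100 bases (24.1%), at 100 to under 120 bases (25.9%) and at 120 to under 150 bases (27.1%). Of 39 introns under 70 bases, 30 were retained at over 80%. Annotated human introns are rarely this short, and whether these events are introns removed by the spliceosome was not tested. Without them, introns of 70 to 200 bases were still retained more than those of over 200 to 500 bases, by 3.55 points (3.02 to 4.03 by tumour, adjusted p = 0.0357 by the same exact sign-flip test).

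**Figure D2:**
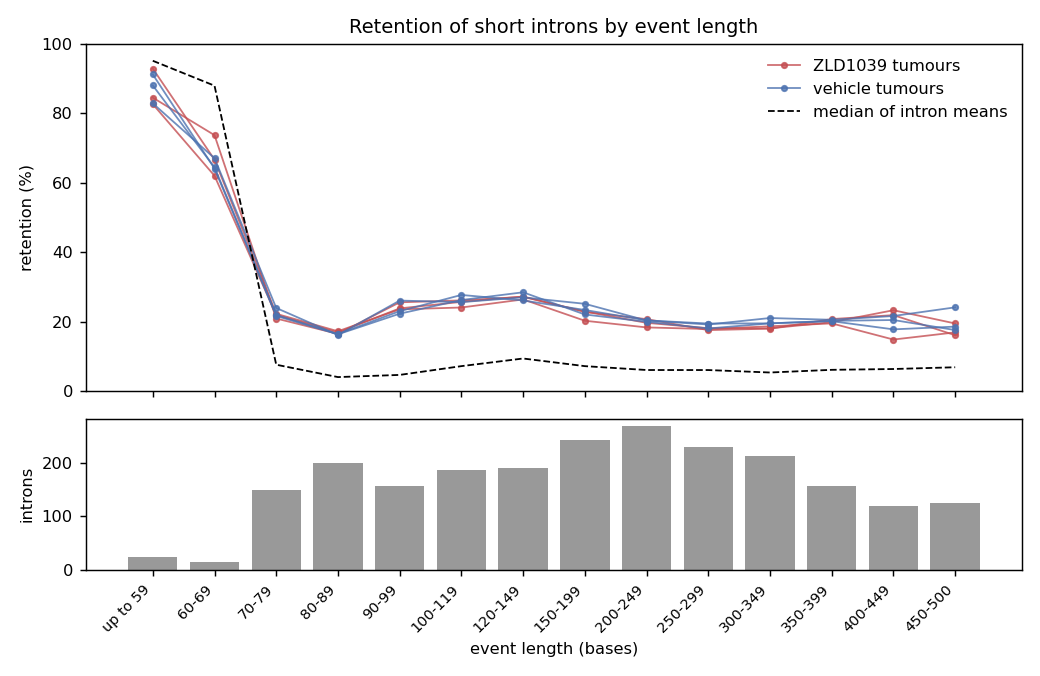
Mean retention (vertical axis, percent) of short introns in fine bins of event length (horizontal axis, bases), with each tumour as a line of points, ZLD1039 and vehicle in 2 colours; the dashed line is the median over introns and the lower panel gives the number of introns per bin. The bins under 60 and of 60 to under 70 bases average 87.1% and 66.4%, and that of 80 to under 90 bases 16.6%.

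The shortest introns tested show this. The event at chromosome 22, 29684732 to 29684757 (26 bases, plus strand) had retained forms of 48.7, 50.7 and 46.0 FPKM in the ZLD1039 tumours and 30.3, 43.4 and 38.2 FPKM in the vehicle tumours. Its spliced form was listed only in vehicle tumour 2, at 7.48 FPKM, where retention was 85.3% and not 100%. A 28-base event at chromosome 22, 29192109 to 29192136 (minus strand, host ENSG00000100219), which encloses 26 intron bases, differed from the other shortest ones in having both forms in every tumour. Whether the spliceosome removes these bases or another pathway does cannot be read from the tables, so retention here means only that they stayed in. Its spliced form stood at 4.75, 6.33 and 2.13 FPKM under ZLD1039 and 3.83, 3.19 and 4.98 FPKM in the vehicle tumours. Retention there was 71.1%, 64.4% and 90.8% in the ZLD1039 tumours and 69.7%, 86.7% and 61.7% in the vehicle tumours, so the groups overlapped. At the other end of the class, an intron of 496 bases at chromosome 12, 57601999 to 57602494 (plus strand) had a retention of 15.9%, 15.3% and 21.8% in the ZLD1039 tumours and 26.4%, 22.6% and 40.2% in the vehicle tumours. Each ZLD1039 value there lay below each vehicle value, with a limma difference of −12.1 points (SE 9.96) and an adjusted p over all exons and introns of at least 0.719. The longest intron tested, of 500 bases at chromosome 16 from 30214327, was retained at 20.5%, 0% and 0% in the ZLD1039 tumours. In the vehicle tumours it stood at 0%, 3.86% and 4.81%. Of the 5 longest introns tested, all but that on chromosome 12 had overlapping groups, each with a higher mean in the ZLD1039 tumours.

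Short introns whose length was a multiple of 3 were retained more than the rest. The 748 short introns with a multiple of 3 intron bases averaged 27.0% retention, against 19.8% for the other 1537. The medians over introns lay closer, at 8.13% and 5.49%. The difference in means was 7.20 percentage points, 5.82 to 8.65 by tumour (higher in 6 of 6 tumours, adjusted p = 0.0357 by the exact sign-flip test). In long introns the same difference was 0.12 points, −1.06 to 0.89 by tumour (exact sign-flip test, p = 0.75). The short difference exceeded the long one by 7.08 points, 5.45 to 9.17 by tumour (adjusted p = 0.0357, same test). This comparison was chosen after the data had been seen. As for length, the tumours share the same introns. The sign-flip p here and below therefore speak of steadiness from tumour to tumour and not of other introns.

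Multiples of 3 made up a larger share of the highly retained short introns than of the rest. Of the short introns retained at over 80%, 43.4% had a multiple of 3 intron bases, against 29.1% to 30.1% in the 3 bands up to 20% and 32.7% of all short introns used. The bands between lay in the middle, with 36.7% at over 20% to 40%, 38.6% at over 40% to 60% and 39.2% at over 60% to 80%. By length, the difference between multiples of 3 and other lengths was 10.5 points at 70 to 100 bases, 7.22 at over 100 to 200, 2.53 at over 200 to 300 and 9.25 at over 300 to 400 bases. It had the opposite sign at over 400 to 500 bases, −3.27 points (−6.92 to −0.93 by tumour, exact sign-flip test, p = 0.03125 before adjustment). Without the introns under 70 bases it was 6.23 points over the class. It did not differ between the groups beyond their spread, at 6.88 ± 1.54 points in the ZLD1039 tumours and 7.52 ± 0.29 points in the vehicle tumours (SD, n = 3 each, exact permutation p = 0.5).

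**Figure D3:**
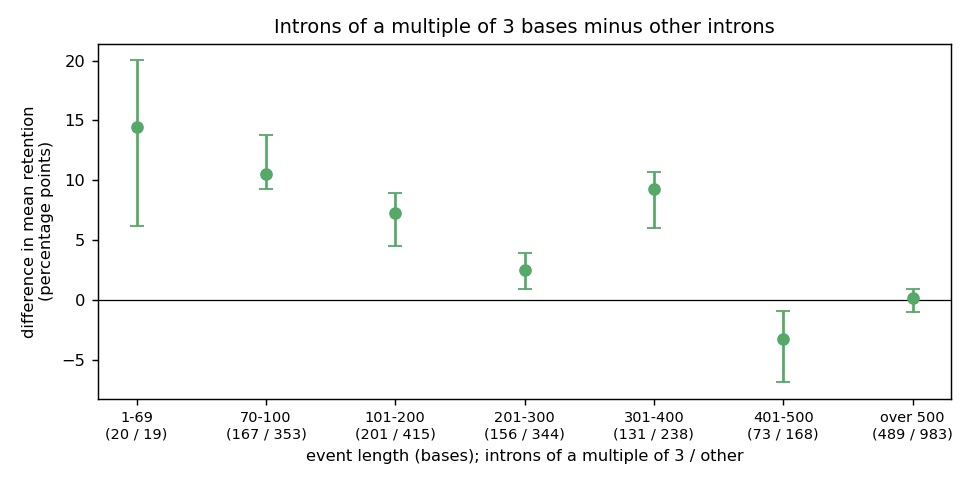
Mean retention of introns with a multiple of 3 intron bases minus that of the other introns (vertical axis, percentage points), by event length (horizontal axis, bases), as the mean over the 6 tumours with the lowest and highest tumour. The difference is 10.5 points at 70 to 100 bases, −3.27 points at over 400 to 500 bases and 0.12 points in the long introns.

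Mean retention was lowest in the most abundant hosts. The abundance of a host locus was the highest of 3 values, the sum over its starts, the sum over its ends and its most abundant event. As a mean over the 6 tumours it ranged from 1.09 to 3361 FPKM with a median of 14.1 FPKM. Mean retention was 22.9% in the 290 short introns of hosts under 5 FPKM, 23.0% in the 1151 of hosts at 5 to under 20 FPKM and 21.7% in the 710 at 20 to under 100 FPKM. It was 16.8% in the 134 introns of hosts at 100 FPKM or more. The medians over introns were 10.3%, 7.57%, 4.04% and 1.83% in the same order of bins. Introns in hosts under 20 FPKM were retained 2.08 points more than those in hosts at 20 FPKM or more, 1.26 to 2.51 by tumour (higher in 6 of 6 tumours, adjusted p = 0.0357 by the exact sign-flip test, with the split chosen after the bins were seen). With a filter of at least 5 FPKM on the mean total the difference was 1.12 points. Host abundance shares its FPKM with the denominator of retention, so the 2 are not independent measures. Spearman's rho between host abundance and retention across introns was −0.044 to 0.0098 by tumour.

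The bins were also crossed, length against host abundance. In hosts under 5 FPKM, introns of 1 to 200 bases averaged 27.5% and those of over 200 to 500 bases 18.3%. The same pair stood at 26.9% and 19.2% in hosts at 5 to under 20 FPKM. At 20 to under 100 FPKM it was 22.3% and 20.9%, and in hosts at 100 FPKM or more 16.9% and 16.8%. The medians over introns did not follow these means, at 10.3% for both length groups in hosts under 5 FPKM and 9.09% and 6.63% at 5 to under 20 FPKM. They were 4.07% and 3.99% at 20 to under 100 FPKM, and 1.58% and 2.30% at 100 FPKM or more. No test was made of these crossed bins.

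**Figure D4:**
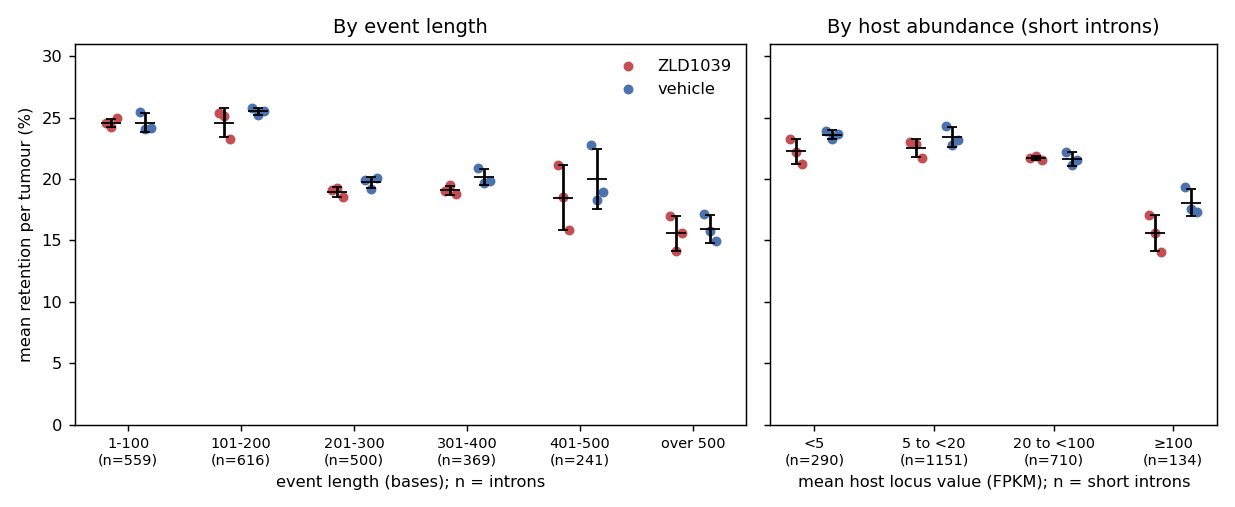
Mean retention of short introns (vertical axis, percent) by event length and by host abundance (horizontal axes, bases and FPKM), with each tumour as a point, ZLD1039 to the left of vehicle, bars for the mean and SD of each group, and long introns as the last length bin. Bins of up to 200 bases lie at 24.6% and 25.1% and hosts at 100 FPKM or more at 16.8%.

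In every tumour the mean retention of short introns was above that of long ones. Mean retention of short and long introns was 22.3% and 17.0% in ZLD1039 tumour 1, 22.03% and 14.2% in tumour 2, and 21.1% and 15.6% in tumour 3. In vehicle tumours 1, 2 and 3 the short introns stood at 23.3%, 22.01% and 22.4% and the long ones at 17.2%, 15.7% and 14.9%. In mean retention the short class was higher by 6.44 points on average, 5.33 to 7.87 by tumour (6 of 6 tumours, adjusted p = 0.0357 by the exact sign-flip test). Medians over introns lay closer, at 1.72% to 3.95% by tumour for short introns and 0% to 1.13% for long ones. In the 372 hosts with introns of both classes, the mean of 689 short introns exceeded that of 515 long ones by the same 6.44 points, 5.30 to 7.13 by tumour (adjusted p = 0.0357, same test). Weighted by abundance the difference was 1.38 points (exact sign-flip test, p = 0.281). The weighted value was higher for short introns in ZLD1039 tumour 2 and vehicle tumours 2 and 3. It was lower for them in ZLD1039 tumours 1 and 3 and vehicle tumour 1. The chromosome 12 intron from 6645956 was retained at 53.3%, 51.1% and 55.9% where the weighted value was higher. Where it was lower, that intron stood at 15.8%, 16.0% and 15.3%. Its retaining exon entered the weighted value once for each of the 2 overlapping introns. The part of this locus in the weighted difference was not tested.

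The difference between the classes was also taken by host abundance. It was 7.45 points in hosts under 5 FPKM, 6.94 at 5 to under 20 FPKM and 6.61 at 20 to under 100 FPKM (exact sign-flip test, p = 0.0417 for each after adjustment over the 4 bins). In hosts at 100 FPKM or more it was −2.09 points, −5.26 to 2.11 by tumour, over 134 short and 49 long introns (adjusted p = 0.125, same test). The class difference was 6.24 ± 1.42 points in the ZLD1039 tumours and 6.64 ± 0.73 points in the vehicle tumours (SD, n = 3 each, exact permutation p = 0.6). Their difference of −0.40 points had the opposite sign without vehicle tumour 3 (0.0082 points) and with 300 bases between the classes (0.038 points).

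Between the treatment groups, mean retention of short introns did not differ beyond the spread of the tumours. It was 21.8 ± 0.62% in the ZLD1039 tumours and 22.6 ± 0.68% in the vehicle tumours (SD, n = 3 each), a difference of −0.75 points (exact two-sided permutation test, p = 0.3, where 0.1 is the smallest that 3 against 3 can give). Without vehicle tumour 1 the difference was −0.32 points. Weighted by abundance, with a shared retaining exon counted once per intron, retention was 9.28%, 12.4% and 8.67% in the ZLD1039 tumours and 10.8%, 12.6% and 12.5% in the vehicle tumours, a difference of −1.85 points (exact permutation p = 0.2). The weighted difference was −3.01 points without ZLD1039 tumour 2. That tumour had the fewest listed events. It also had the highest retention among the ZLD1039 tumours of the chromosome 12 intron from 6645956, at 53.3%. Without the 10 most abundant short introns the weighted difference was −1.03 points (exact permutation p = 0.1, the smallest possible). Fewer cells of a type and less RNA per cell cannot be told apart in these bulk tumours.

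Introns with no listed retained form were counted too. Short introns at 0% numbered 500, 573 and 524 in the ZLD1039 tumours and 465, 488 and 499 in the vehicle tumours, so the groups did not overlap (exact permutation p = 0.1, and 0.66 after adjustment over the 22 measures compared per tumour). ZLD1039 tumour 2, with the most such introns, also listed the fewest events of all kinds, 118402, and the part of this in the count was not tested. The nearest pair of tumours, ZLD1039 tumour 1 and vehicle tumour 3, stood at 500 and 499. Long introns at 0% numbered 625, 752 and 669 in the ZLD1039 tumours and 588, 664 and 695 in the vehicle tumours, so there the groups overlapped. By length, the differences between ZLD1039 and vehicle were −0.0087 points at 1 to 100 bases, −0.93 at over 100 to 200, −0.77 at over 200 to 300, −1.08 at over 300 to 400 and −1.50 at over 400 to 500 bases, with adjusted exact permutation p between 0.333 and 1. In hosts at 100 FPKM or more, short introns averaged 15.6 ± 1.49% in the ZLD1039 tumours and 18.1 ± 1.12% in the vehicle tumours (SD, n = 3 each, exact permutation p = 0.1, adjusted over the 4 host bins 0.4).

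No single short intron passed the test of retention. Tests were run with limma over 13274 exons and introns with a mean share between 1% and 99%, of which 1787 were short introns, and the share past an adjusted p of 0.05 was 0% over all of them and 0 of 1787 among the short introns. The smallest adjusted p was 0.719. At an unadjusted p under 0.05 stood 57 short introns (3.19%), 22 higher and 35 lower under ZLD1039, against a background of 2.09% over all tested. All ZLD1039 values lay above all vehicle values in 49 short introns (2.74%, background 3.25%) and below them in 78 (4.36%, background 3.69%). The difference was below 0 in 965 short introns (54.0%), against 50.5% over all tested, and its median was −0.50 points in short introns, −0.62 in long ones and −0.07 over all tested. The 95% interval of a single short intron reached a median of 16.0 points to each side, which is the precision of these comparisons.

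The introns with the smallest unadjusted p are given as values, since none passed. At chromosome 6, 31656563 to 31656792 (230 bases, minus strand) retention was 18.7%, 24.2% and 19.2% in the ZLD1039 tumours, against 0.0202%, 0.198% and 0.0103% in the vehicle tumours. Its spliced form was alike in the groups, at 4.98, 3.04 and 3.41 FPKM under ZLD1039 and 2.97, 2.65 and 4.66 FPKM in the vehicle tumours. So the groups were apart in the retained form alone, with a difference of 20.6 points (SE 4.09, limma adjusted p = 0.719). At chromosome 1, 153906347 to 153906611 (265 bases, minus strand) retention was 28.9%, 29.7% and 20.4% in the ZLD1039 tumours and 0% in all 3 vehicle tumours, where no retained form was listed. At chromosome 5, 140075430 to 140075688 (259 bases, plus strand) it was 20.4%, 15.1% and 24.8% in the ZLD1039 tumours and 0% in all 3 vehicle tumours. These introns had the same shape, a retained form of 0.812 to 3.998 FPKM in each ZLD1039 tumour and at most 0.00525 FPKM in any vehicle tumour.

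On chromosome 16 the intron from 705889 to 706302 (414 bases, plus strand) belonged to the locus labelled ENSG00000140983. It was retained at 93.0%, 70.01% and 84.7% in the ZLD1039 tumours, against 5.89%, 1.19% and 6.58% in the vehicle tumours. Its retained form stood at 1.83, 0.962 and 1.37 FPKM under ZLD1039 and at 0.0863, 0.0122 and 0.0479 FPKM under vehicle, and its spliced form ran the other way, at 0.138, 0.412 and 0.249 FPKM under ZLD1039 and 1.38, 1.02 and 0.681 FPKM in the vehicle tumours. Both forms were a small part of the locus, which averaged 57.1 FPKM. The intron at chromosome 17, 80394614 to 80395044 (431 bases, plus strand) was retained at 87.9%, 47.0% and 44.5% in the ZLD1039 tumours and 0% in all 3 vehicle tumours. A 237-base intron at chromosome 21, 45744800 to 45745036 (plus strand) stood at 100% in all 3 ZLD1039 tumours, against 12.2%, 1.11% and 4.45% in the vehicle tumours. There the ZLD1039 tumours had retained forms of only 0.00198, 0.0229 and 0.0442 FPKM and no spliced form, so 100% rests on almost no RNA, whereas the vehicle tumours had 1.97, 3.21 and 3.44 FPKM of the spliced form.

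Among the introns lower under ZLD1039, that at chromosome 12, 122967891 to 122968007 (117 bases, minus strand) was retained at 0.309%, 0.0481% and 0.0361% in the ZLD1039 tumours, against 14.6%, 22.2% and 20.01% in the vehicle tumours. Its difference was −18.8 points (SE 4.04, limma adjusted p = 0.719), and its spliced form was 7.96, 7.81 and 9.11 FPKM in the ZLD1039 tumours and 8.33, 6.47 and 5.75 FPKM in the vehicle tumours. The 80-base intron at chromosome 11, 64897644 to 64897723 (minus strand) was retained at no more than 0.00377% in a ZLD1039 tumour, and at 13.9%, 12.8% and 16.6% in the vehicle tumours. In both introns the spliced form was present in every tumour and the retained form was close to 0 under ZLD1039.

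The intron at chromosome 1, 226054382 to 226054812 (431 bases, minus strand) was at 0% in all 3 ZLD1039 tumours and at 13.1%, 16.4% and 16.1% in the vehicle tumours. That at chromosome 19, 49692027 to 49692203 (177 bases, plus strand) was at 0% in all 3 ZLD1039 tumours and at 23.1%, 33.6% and 39.8% in the vehicle tumours. Overlapping introns of 108 and 157 bases at chromosome 12, from 1025698 and from 1025649 to 1025805 (minus strand), share 1 retaining exon, which was listed at 2.12, 2.97 and 0.882 FPKM under vehicle and in no ZLD1039 tumour. The 157-base intron was thus retained at 0% in the ZLD1039 tumours and at 41.0%, 71.2% and 59.97% in the vehicle tumours. Totals of the 108-base intron in the ZLD1039 tumours were 0.340, 0.00285 and 0.00293 FPKM, so its 0% rests on little RNA.

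**Figure D5:**
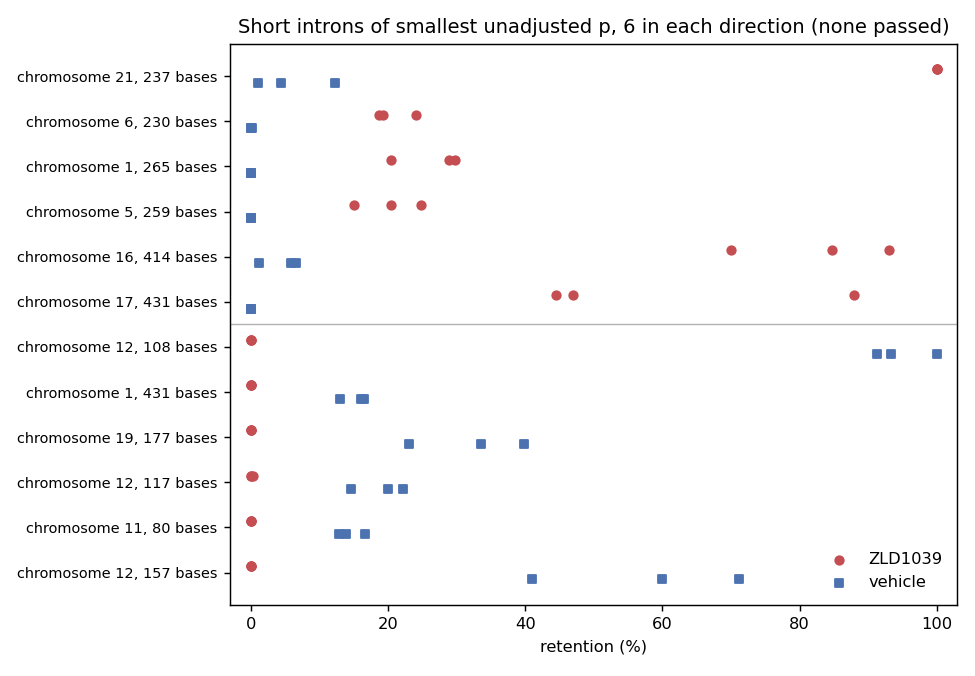
Retention (horizontal axis, percent) in each ZLD1039 and each vehicle tumour of the short introns with the smallest unadjusted limma p in each direction, 6 higher and 6 lower under ZLD1039 (vertical axis, by position). The groups do not overlap in any of the 12 introns, which were picked for this, and the adjusted p is 0.719 for each.

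Abundance of the retained and the spliced forms was tested apart from their ratio. Of 1149 retained forms of short introns tested with limma on log2(FPKM + 1), 1 passed an adjusted p of 0.05 (0.0870%, against 0.0364% of all 85258 events tested), and of 2165 spliced forms 0 passed. At an unadjusted p under 0.05 stood 71 retained forms (6.18%) and 93 spliced forms (4.30%), against 4.72% of all events. The form that passed belonged to the intron at chromosome 20, 42088060 to 42088411 (352 bases, plus strand, host ENSG00000124193). It was listed at 19.8, 18.8 and 23.1 FPKM under ZLD1039 and in no vehicle tumour, with a limma difference of 4.43 on the log2(FPKM + 1) scale (adjusted p = 0.0063). With the vehicle group at 0, the size of that difference is set by the pseudocount and was 7.69 on log2(FPKM + 0.1) (limma adjusted p = 0.0239). Its spliced form was listed only in ZLD1039 tumour 2, at 4.06 FPKM, so retention has no value in the vehicle tumours. The host locus overlapped between the groups, at 38.7, 39.9 and 44.3 FPKM under ZLD1039 and 45.3, 40.2 and 56.6 FPKM in the vehicle tumours. Leaving out any 1 tumour took the call away, with adjusted p of 0.0597 to 0.128.

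Listing itself was compared too. A retained form was listed in all 3 ZLD1039 tumours and in no vehicle tumour for 7 of the 3060 short introns (0.229%, against 0.288% of all events), and in all 3 vehicle tumours and no ZLD1039 tumour for 12 (0.392%, against 0.388%). Both shares were near those of all events. Of the 1673 host loci tested, 0 passed an adjusted p of 0.05 in limma (0.0185% of all 10838 loci passed), and 88 had an unadjusted p under 0.05 (5.26%, against 5.02% of all loci). The median difference of the host loci was −0.01 on the log2(FPKM + 1) scale, against 0.02 for all loci.

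Hosts and chromosomes differed in how many short introns they held. Of the hosts, 1037 held 1 short intron, 358 held 2 and 327 held 3 or more. Introns used averaged 19.1% retention in hosts with 1 short intron, 22.3% in hosts with 2 and 24.7% in hosts with 3 or more. The host locus with the most, labelled ENSG00000140983 on chromosome 16 (699311 to 723130, plus strand), had 16 short introns. Of these 10 were used, and their mean retention ran from 0.294% to 89.9%. The next, labelled ENSG00000137070 on chromosome 9 (34646633 to 34660933, plus strand), had 11, of which 6 were used, at 0.0854% to 32.2%. Retention thus differed widely between introns of 1 locus. A locus here is the group of events listed under 1 locus name, and its span runs over those events. Whether a locus holds more than the labelled gene was not tested.

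By position within the locus, counted in the direction of transcription, short introns averaged 26.8% in the first 20% of its span, 21.4% at 20% to 40%, 18.6% at 40% to 60%, 24.998% at 60% to 80% and 21.2% past 80%, with no steady order. By chromosome, 19 held 319 short introns, 10.4% of the short class and 6.58% of the long class, and of all paired introns on it 69.2% were short. That share was 73.0% on chromosome 8, 67.6% on 22, 65.4% on 6, 65% on 15, 64.8% on 17 and 64.3% on 16, against 58.6% over all paired introns. It was lowest among the numbered chromosomes on 13, at 25% with 10 short introns, and on 21, at 29.8% with 14. Mean retention on chromosome 19 was 18.9% and on chromosome 16 it was 26.2%. These values are descriptions and were not tested.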

How the data were processed

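RNA was measured in 6 tumours, 3 under ZLD1039 and 3 under vehicle, grouped by title. The authors deposited 1 event table per tumour with FPKM values, per the file headers; mRNA was bead-purified and libraries made with a SMARTer kit, per the labels' protocols. Read conversion with bcl2fastq 2.17.1.14, a mouse build (mm10) and HTSeq 0.6.1 stand in the submitters' processing notes. Which aligner, assembler and event program were run is not given in the sources used here. Chromosome numbers run to 22 and positions on chromosome 1 to 249214145, past the end of that mouse chromosome; from background knowledge the positions match human GRCh37, so they are given as in the files. No human genome, annotation or gene names were used: 0 of 1714 host identifiers matched the mouse name table, so gene lists and marker genes could not be looked up, and no sequence is printed.

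Repeated rows (4311 to 4696 of 128806 to 139072 per tumour) were dropped and unlisted events set to 0. An unlisted form need not be absent from the tumour. FPKM values are not counts, so no count model was used. The authors' FPKM are rescaled per library and per length. Retention (at least 1 FPKM mean total, above 0 in all 6 tumours, and for single tests a mean of 1% to 99%) and log2(FPKM + 1) of events and loci were fitted with limma 3.58.1 (R 4.3.3, mean-variance trend) over all features, with Benjamini-Hochberg adjustment at 0.05. The fits were also run on simulated normal values, which are unbounded, unlike retention in percent. That run therefore does not check the fits for retention values at the ends of the scale. Single values per tumour used exact permutation tests, and contrasts within tumours exact sign-flip tests (scipy 1.17.1), all two-sided. Named introns were the 6 of smallest p in each direction, the 5 most abundant, the 5 most abundant of 3 bands, those past the abundance threshold, and the 5 shortest and longest tested; the text shows some of each. The introns and lists were chosen with earlier results of these data known. Same-numbered tumours did not deviate together, so no block was used.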

Additional observations from a re-analysis of the deposited data

How the results depend on the processing

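Depth is unknown, so a form missing from 1 tumour cannot be told from one below detection, and retention of forms under 1 FPKM is imprecise. Every alternative run for the mean and for the weighted retention gave a lower value under ZLD1039; leaving out 1 tumour gave −1.06 to −0.32 points for the mean and −3.01 to −1.13 for the weighted value. The difference in short minus long retention between ZLD1039 and vehicle, −0.40 points, had the opposite sign without vehicle replicate 3 (leaving out 1 tumour gave −1.24 to 0.0082) and with 300 bases between the classes (0.038); the cause was not tested. Leaving out 1 tumour gave 5.46 to 6.71 points for short minus long, 4.85 to 5.51 for introns of 1 to 200 minus over 200 to 500 bases, 1.88 to 2.40 for hosts under 20 minus 20 FPKM or more, and 6.94 to 7.70 for multiples of 3. With 5 tumours the exact sign-flip test cannot go below 0.0625. A filter of at least 5 FPKM gave 1.12 points for hosts and 10.6 for multiples of 3. Short minus long weighted by abundance was 1.38 points (exact sign-flip p = 0.281). With replicate number as a block (3 pairs, smallest exact p 0.25) these contrasts were 6.44, 5.41, 2.08 and 7.20 points, and the passing forms of short introns numbered 0; deviations of same-numbered tumours had r of −0.027, 0.053 and −0.031, and not every tumour correlated best with its own number. Without limma's mean-variance trend 3 short introns passed for retention. Their limma p adjusted over all exons and introns were 0.0027 (chromosome 21, from 45744800), 0.0473 (chromosome 16, from 705889) and 0.0019 (chromosome 12, from 1025698). In that setting 2 forms passed for abundance, as at a threshold of 0.1. Leaving out 1 tumour left 0 to 0 forms past the threshold, and the block gave the chromosome 20 form an adjusted limma p of 0.277.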
